A study of Mus musculus with 18 samples.

Results

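The cell cycle and DNA replication genes are 59 genes, chosen by symbol for their known roles, out of the 24054 genes in each of 3 tissue tables. Earlier results of these data were known when they were chosen. The list comprises 11 genes of the G1/S transition, 18 genes of S phase, 25 genes of G2 and mitosis and 5 inhibitors of cyclin-dependent kinases (CDKs). All 59 were present in every table. They were measured by RNA-Seq in hypothalamus, pituitary and thyroid of WT mice (mice 1, 2 and 43) and of mice homozygous for THRB K146Q (mice 60, 62 and 83), which gave 18 libraries of 3 mice per genotype in each tissue. K146Q replaces a lysine of thyroid hormone receptor β to which SUMO is attached. It is a whole-body knock-in of 1 nucleotide, carried by every receptor isoform, on the strain labelled C57BL/Ntac. The mice were males, 3 months old and untreated, the WT mice were of the same substrain, and the labels give no other allele or agent for either group. The paper reports that the mutant mice have enlarged thyroids. It also reports a smaller enlargement of the pituitary, with a larger share of cells that stain for thyrotropin. The question was which genes of the division cycle differed in the thyroid, and whether they differed in the pituitary and hypothalamus.

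A dividing cell passes through phases that are driven by kinases whose partner proteins, the cyclins, are made and destroyed in turn. D and E cyclins with CDK4, CDK6 and CDK2 release the E2F factors from the retinoblastoma proteins, and E2F then switches on the enzymes that copy DNA. Later, B-MYB and FOXM1 act with the MuvB complex at promoter elements called CHR and at neighbouring CCAAT boxes, which bind NF-Y, to switch on genes of mitosis. The follicular cells of an adult thyroid rarely divide, and thyrotropin is the best known stimulus for their growth.

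A few promoter windows are given here to show windows with and without these elements among genes of G2/M and of S phase. RefSeq promoter windows of 300 bases (GRCm38.p6, 250 bases before to 50 after a gene's start, the first entry listed for each gene) were matched for 47 of the 59 genes. Both strands were searched for CHR (TTTGAA or TTCGAA), the CCAAT box (CCAAT) and the E2F site (TTTCCCGC, TTTGGCGC, TTTCGCGC or TTTGCCGC). Each stretch below runs from 200 bases before to 20 bases after the start, 5′ to 3′ on the strand of the gene, with every match on either strand in capitals. Ccnb2 (cyclin B2) lies at chr9:70421535-70421754 (minus strand), Cdk1 (the mitotic kinase) at chr10:69352893-69353112 (minus strand), Top2a (topoisomerase IIα, which untangles sister DNA) at chr11:99024170-99024389 (minus strand) and Pttg1 (securin, which holds back separase) at chr11:43425962-43426181 (minus strand). Mcm6 and Mcm7, subunits of the helicase that opens the replication origin, lie at chr1:128359686-128359905 (minus strand) and chr5:138171864-138172083 (minus strand).
Ccnb2: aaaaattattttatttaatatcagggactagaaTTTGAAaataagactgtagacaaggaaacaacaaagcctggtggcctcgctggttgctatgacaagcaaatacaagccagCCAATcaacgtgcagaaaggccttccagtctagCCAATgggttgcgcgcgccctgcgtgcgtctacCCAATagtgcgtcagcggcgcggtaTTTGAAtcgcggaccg
Cdk1: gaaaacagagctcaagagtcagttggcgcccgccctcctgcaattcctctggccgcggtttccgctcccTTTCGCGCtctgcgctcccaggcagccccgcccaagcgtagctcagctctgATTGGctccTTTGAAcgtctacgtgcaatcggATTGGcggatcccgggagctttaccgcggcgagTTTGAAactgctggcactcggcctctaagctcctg
Top2a: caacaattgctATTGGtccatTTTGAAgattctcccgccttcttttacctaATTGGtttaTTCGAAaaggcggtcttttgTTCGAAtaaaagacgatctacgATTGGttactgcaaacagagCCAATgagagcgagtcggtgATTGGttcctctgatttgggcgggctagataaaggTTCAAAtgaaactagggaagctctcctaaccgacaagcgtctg
Pttg1: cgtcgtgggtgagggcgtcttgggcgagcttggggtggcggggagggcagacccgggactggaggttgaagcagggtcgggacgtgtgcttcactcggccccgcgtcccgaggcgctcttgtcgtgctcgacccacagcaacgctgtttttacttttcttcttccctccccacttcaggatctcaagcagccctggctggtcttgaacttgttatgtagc
Mcm6: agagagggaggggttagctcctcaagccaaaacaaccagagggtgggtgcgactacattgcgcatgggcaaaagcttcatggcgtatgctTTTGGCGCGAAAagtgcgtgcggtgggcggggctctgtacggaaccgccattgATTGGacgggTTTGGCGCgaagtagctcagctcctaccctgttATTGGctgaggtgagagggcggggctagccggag
Mcm7: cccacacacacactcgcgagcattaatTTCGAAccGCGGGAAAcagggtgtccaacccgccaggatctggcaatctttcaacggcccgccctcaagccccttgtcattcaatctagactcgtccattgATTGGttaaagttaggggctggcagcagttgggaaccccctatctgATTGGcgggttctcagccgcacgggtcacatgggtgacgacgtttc
In the stretch of Ccnb2 the 3 CCAAT boxes began at bases -87, -54 and -21. A CHR began at base -167 and another 5 bases into the transcript. Cdk1 held 2 CHR words, at bases -71 and -15, and Top2a held 4. The window of Pttg1, the only G2/M gene that did not pass the test in thyroid, held none of the 3 motifs, nor did those of Birc5, Mybl2 and Nusap1, which passed. That Pttg1 window (chr11:43425932-43426231) lies inside the GENCODE gene, whose start on the minus strand is base 43426251. The bases before that start were not searched, so the absence of motifs holds for this window only. Mcm6 held 3 E2F words, of which 2 overlap, and no CHR, whereas the stretch of Mcm7 held 1 CHR word and 1 E2F word. The Mcm7 window also lies inside its GENCODE gene, whose start on the minus strand is base 138172422.

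Over the windows, CHR words were found in 14 of 20 G2/M genes (70%), beside 19.4% of all 27025 promoters. A CCAAT box was found in 16 of the 20 (80%, against 37.9% of all promoters). E2F words marked the S-phase genes instead, with 6 of 15 windows (40%, against 2.32% of all promoters), and only 1 of the 20 G2/M windows, that of Cdk1, held one. In the S group 3 of 15 windows held CHR, and 10 of 15 held a CCAAT box. Of 8 G1/S windows, 1 held CHR, 3 a CCAAT box and 2 an E2F word, and of 4 inhibitor windows 0, 1 and 1 did. A match is a description of letters in a window and not of a bound factor.

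**Figure D1:**
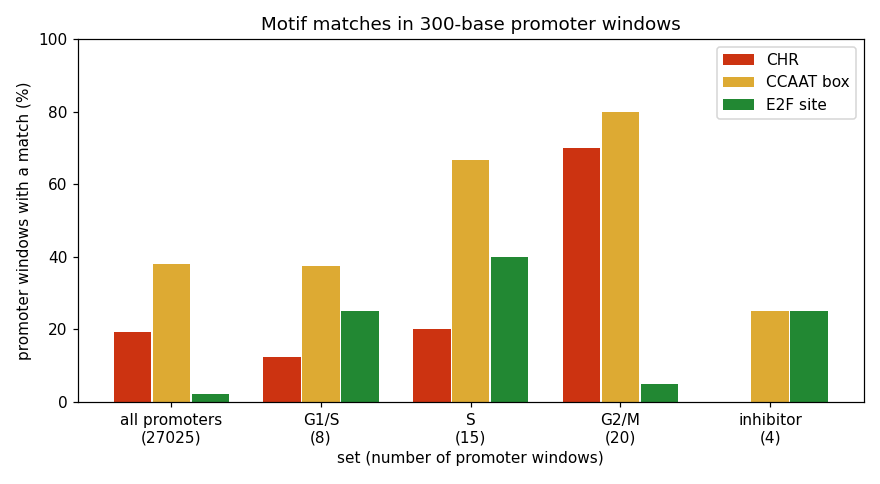
Share of 300-base promoter windows (percent, y axis) with a match to CHR, the CCAAT box or the E2F site on either strand, for all promoters and for the members of each phase (number of windows in brackets). CHR words were in 70% of the G2/M windows, and E2F words in 40% of the S-phase windows.

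Libraries held 14902330 to 21230050 reads, and a value of 3 reads corresponded to between 0.133 and 0.190 normalized CPM (reads counted per library and scaled by its size), the scale of all levels below (values scaled within each tissue's table, so that levels set across tissues rest on separate scalings). Library 2 of the WT thyroids stood apart: it was the lowest of the 3 WT thyroid libraries for 51 of the 59 genes, and thyroid results are therefore also given without it. Among the K146Q thyroids, library 83 was the highest for 40 of the 59 genes. The Thrb transcript, whose level does not test a point mutation, averaged 15.6 ± 0.679 (SD, n = 3) in WT and 5.94 ± 1.13 in K146Q thyroids (limma adjusted p = 0.000621) and rose in the pituitary from 103 ± 4.35 to 162 ± 20.9 (adjusted p = 0.00285). In bulk tissue, more dividing cells and more RNA per dividing cell cannot be told apart.

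In the thyroid the list was broadly higher in K146Q mice. Of the 59 genes, all of which passed the low-value filter, 42 were higher and 3 lower at an adjusted p below 0.05 (limma, Benjamini-Hochberg over the 15200 genes tested), while 19.7% of all genes tested were higher and 18.1% lower. The median log2 change (K146Q minus WT, on values plus a pseudocount of 0.5) was 0.95 over the list and -0.025 over all genes tested. All 3 K146Q libraries lay above all 3 WT libraries for 44 genes (26.6% of all genes tested) and below them for 3 genes (25.7%). The change was graded by phase, with medians of 0.36 for G1/S, 0.58 for S and 1.48 for G2/M. Without WT library 2, 35 genes were higher and 3 lower, and the median over the list was 0.69 (0.23 for G1/S, 0.43 for S and 1.31 for G2/M). Leaving out K146Q library 83 gave 34 higher and 2 lower, and leaving out K146Q library 62 gave 34 higher and 1 lower.

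The G2/M genes had the highest median change of the 4 groups and the highest share called, with 24 of 25 higher, 0 lower and log2 changes of the 24 between 1.02 and 2.02. The lowest of these, for Cenpe, was 0.62 without WT library 2. Tpx2, which loads Aurora A onto the spindle, was at 10.04, 6.83 and 8.06 in the WT and 34.7, 34.0 and 35.6 in the K146Q thyroids. Ccnb2 was at 4.10, 3.10 and 3.61 in WT and 13.5, 15.2 and 14.8 in K146Q. Ube2c, the ubiquitin-conjugating enzyme of the anaphase-promoting complex, was at 7.45, 3.67 and 8.72 in WT and 28.2, 24.6 and 23.8 in K146Q. In all 3 genes the lowest mutant thyroid lay above the highest WT thyroid, and the mutant libraries were close together. Their log2 changes were 2.02 ± 0.14 (SE) for Tpx2 (adjusted p = 9.92e-05), 1.88 ± 0.14 for Ccnb2 (adjusted p = 0.000127) and 1.95 ± 0.28 for Ube2c (adjusted p = 0.0016). On the linear scale, without the pseudocount, the ratios of group means were 4.19 for Tpx2, 4.02 for Ccnb2 and 3.86 for Ube2c.

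The usual markers of dividing cells moved with them. Mki67, which coats mitotic chromosomes and is the marker most used for counting cycling cells, was at 36.3, 23.2 and 32.5 in WT and 76.1, 73.9 and 104 in K146Q thyroids. Top2a was at 20.3, 14.5 and 19.6 in WT and 47.1, 50.01 and 67.1 in K146Q. Cdk1 was at 7.33, 3.86 and 8.18 in WT and 22.6, 22.1 and 22.2 in K146Q. The groups did not overlap for any of the 3, mouse 83 was the highest for Mki67 and Top2a, and the Cdk1 level of the mutants was nearly constant. The log2 changes were 1.46 ± 0.19 for Mki67 (adjusted p = 0.00111), 1.57 ± 0.17 for Top2a (adjusted p = 0.000555) and 1.77 ± 0.25 for Cdk1 (adjusted p = 0.0014).

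The other G2/M genes that rose are given by their roles. Among regulators of entry, Ccna2 changed by 1.49, Ccnb1 by 1.61, Plk1 by 1.66, Aurka by 1.43, Foxm1 by 1.48 and Mybl2 by 1.08 on the log2 scale. Of the chromosomal passenger and checkpoint genes, Aurkb (1.43), Birc5 (1.59), Bub1 (1.37), Bub1b (1.48) and Cdc20 (1.42), the activator of the anaphase-promoting complex, all rose. Kinetochore, spindle motor and midzone genes rose too: Cenpe (1.02), Cenpf (1.36), Kif11 (1.21), Kif20a (1.46), Kif23 (1.22), Nusap1 (1.56) and Prc1 (1.61). Pttg1 alone did not pass, with a log2 change of 0.019 (95% interval -0.25 to 0.28). All 24 called genes stayed called without WT library 2, and 23 of them stayed called in every alternative analysis tried. The exception, Cenpe, was lost in 3 of the 6 analyses that left out 1 mouse and in 2 others.

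**Figure D2:**
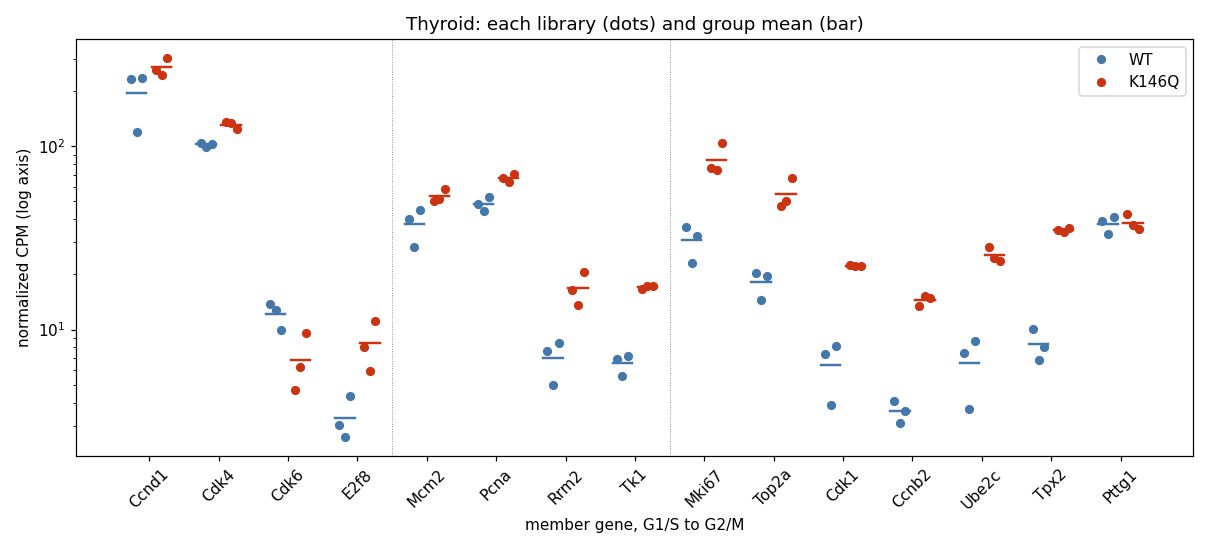
Level of 15 members in the 6 thyroid libraries (dots, normalized CPM on a log axis) with the group mean as a bar, ordered from G1/S to G2/M. The mutant Tpx2 values lie between 34.0 and 35.6 and the WT values between 6.83 and 10.04, whereas the Pttg1 groups overlap.

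S-phase genes moved in the same direction but by less. Of the 18 genes, 12 were higher, 0 were lower and 6 did not pass, and the log2 change was above 0 in all 18. Tk1, the thymidine salvage kinase, was at 6.95, 5.57 and 7.16 in WT and 16.6, 17.4 and 17.4 in K146Q thyroids. Rrm2, the regulated subunit of ribonucleotide reductase, was at 7.64, 4.999 and 8.48 in WT and 16.4, 13.7 and 20.52 in K146Q. These 2 nucleotide-supply genes had no overlap between genotypes and rose by 1.33 ± 0.13 (adjusted p = 0.000344) and 1.22 ± 0.22 (adjusted p = 0.00471) on the log2 scale. Rrm1, the partner subunit, rose by only 0.41, and Tyms, which makes thymidylate anew, did not pass (0.20, 95% interval -0.073 to 0.46).

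Among the genes of the replication machinery, Pcna, the sliding clamp of the polymerases, was at 48.4, 44.1 and 52.9 in WT and 67.1, 64.2 and 70.8 in K146Q thyroids. Mcm2, a helicase subunit, was at 39.8, 28.2 and 44.7 in WT and 50.1, 51.8 and 58.4 in K146Q. The groups did not overlap for either gene, and the log2 changes were 0.47 ± 0.091 for Pcna (adjusted p = 0.00583) and 0.52 ± 0.17 for Mcm2 (adjusted p = 0.0406). The other helicase subunits changed by 0.99 (Mcm3), 0.77 (Mcm5), 0.63 (Mcm6) and 0.54 (Mcm7), and Mcm4 had 0.48 with an adjusted p of 0.0571. The licensing factor Cdt1 rose by 0.79, the polymerase subunit Pole by 1.01 and Uhrf1, which maintains DNA methylation at the fork, by 0.89. The other genes that did not pass were the loading factor Cdc6 (0.95 ± 0.51, WT 4.29, 1.01 and 4.69), the helicase activators Cdc45 (0.31) and Gins2 (0.37), and the checkpoint kinase Chek1 (0.14). The calls of Mcm2, Mcm5 and Rrm1 were each lost in 5 of the 6 analyses without 1 mouse, and without WT library 2 the number of S-phase genes called higher was 9. Without that library Mcm2 had 0.33 (adjusted p = 0.0535), Cdc6 0.38, Gins2 0.16 and Chek1 -0.10.

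The G1/S genes were mixed, with 4 higher, 1 lower and 6 that did not pass. Cdk4, the partner of the D cyclins, was at 104, 99.4 and 103 in WT and 136, 133 and 124 in K146Q thyroids. E2f8, an atypical E2F that represses, was at 3.03, 2.59 and 4.33 in WT and 8.08, 5.94 and 11.2 in K146Q. Neither gene overlapped between genotypes, and the log2 changes were 0.36 ± 0.073 (adjusted p = 0.00736) and 1.204 ± 0.26 (adjusted p = 0.00962). Cdk6, the other kinase that binds D cyclins, went the opposite way, at 13.8, 12.8 and 9.98 in WT and 4.66, 6.23 and 9.61 in K146Q, a log2 change of -0.84 ± 0.25 (adjusted p = 0.0346) in which the closest WT and mutant libraries nearly touched. The Cdk6 call was lost in 4 of the 6 analyses that left out 1 mouse, WT library 2 included.

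The cyclins that start the cycle did not pass. Ccnd1, the cyclin D most responsive to growth signals, was at 232, 119 and 235 in WT and 261, 245 and 303 in K146Q thyroids, with a log2 change of 0.52 ± 0.25 (adjusted p = 0.142). The groups did not overlap, and WT library 2 lay far below the other 2 WT libraries, and without it the change was 0.20 (adjusted p = 0.206). Ccnd2 changed by 0.23 and Ccnd3 by 0.022 (95% interval -0.15 to 0.19), and the E cyclins Ccne1 and Ccne2 by 0.44 and 0.27, all short of the threshold, and without WT library 2 those of Ccne1 and Ccne2 were 0.23 and 0.0088. Per kilobase of merged GENCODE exons, the WT thyroid means were 54.1 for Ccnd2, 41.5 for Ccnd1 and 17.1 for Ccnd3. Cdk2 (0.32) and E2f2 (0.51) passed, and their calls were lost in 4 and 5 of the 6 analyses without 1 mouse. E2f1 was at 14.0, 5.63 and 14.8 in WT and 19.2, 14.0 and 21.05 in K146Q, and the groups overlapped (0.73 ± 0.35, adjusted p = 0.136, and 0.30 without WT library 2).

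The 5 CDK inhibitors split, with 2 higher, 2 lower and 1 that did not pass. Cdkn1b, which encodes p27, was at 56.7, 47.8 and 50.8 in WT and 64.7, 67.9 and 62.7 in K146Q thyroids (0.33 ± 0.088, adjusted p = 0.0214). Cdkn2a was close to the detection limit, at 0.884, 0.253 and 0.481 in WT and 1.19, 1.41 and 1.23 in K146Q (0.82 ± 0.26, adjusted p = 0.0423), and edgeR on the recovered reads gave an adjusted p of 0.0594. Both were higher in each mutant library than in any WT library. Cdkn1c, which encodes p57, was at 11.4, 10.1 and 12.5 in WT and 9.12, 7.76 and 6.86 in K146Q (-0.49 ± 0.15, adjusted p = 0.0353). Cdkn2c, which encodes p18 and binds CDK4 and CDK6, was at 13.8, 14.6 and 13.8 in WT and 9.57, 10.9 and 8.68 in K146Q (-0.52 ± 0.12, adjusted p = 0.0137). For these 2 genes every mutant library lay below every WT library. Cdkn1a, which encodes p21, was at 162, 49.9 and 158 in WT and 115, 96.4 and 136 in K146Q, so the mutants lay between the WT libraries (0.076 ± 0.42, adjusted p = 0.905). Without WT library 2 the Cdkn1a change was -0.48 with an adjusted p of 0.0413, and neither Cdkn1b nor Cdkn2a was called. Over the 6 analyses that left out 1 mouse, the calls of Cdkn1b and Cdkn1c were each lost in 4, that of Cdkn2a in 5 and that of Cdkn2c in 0.

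**Figure D3:**
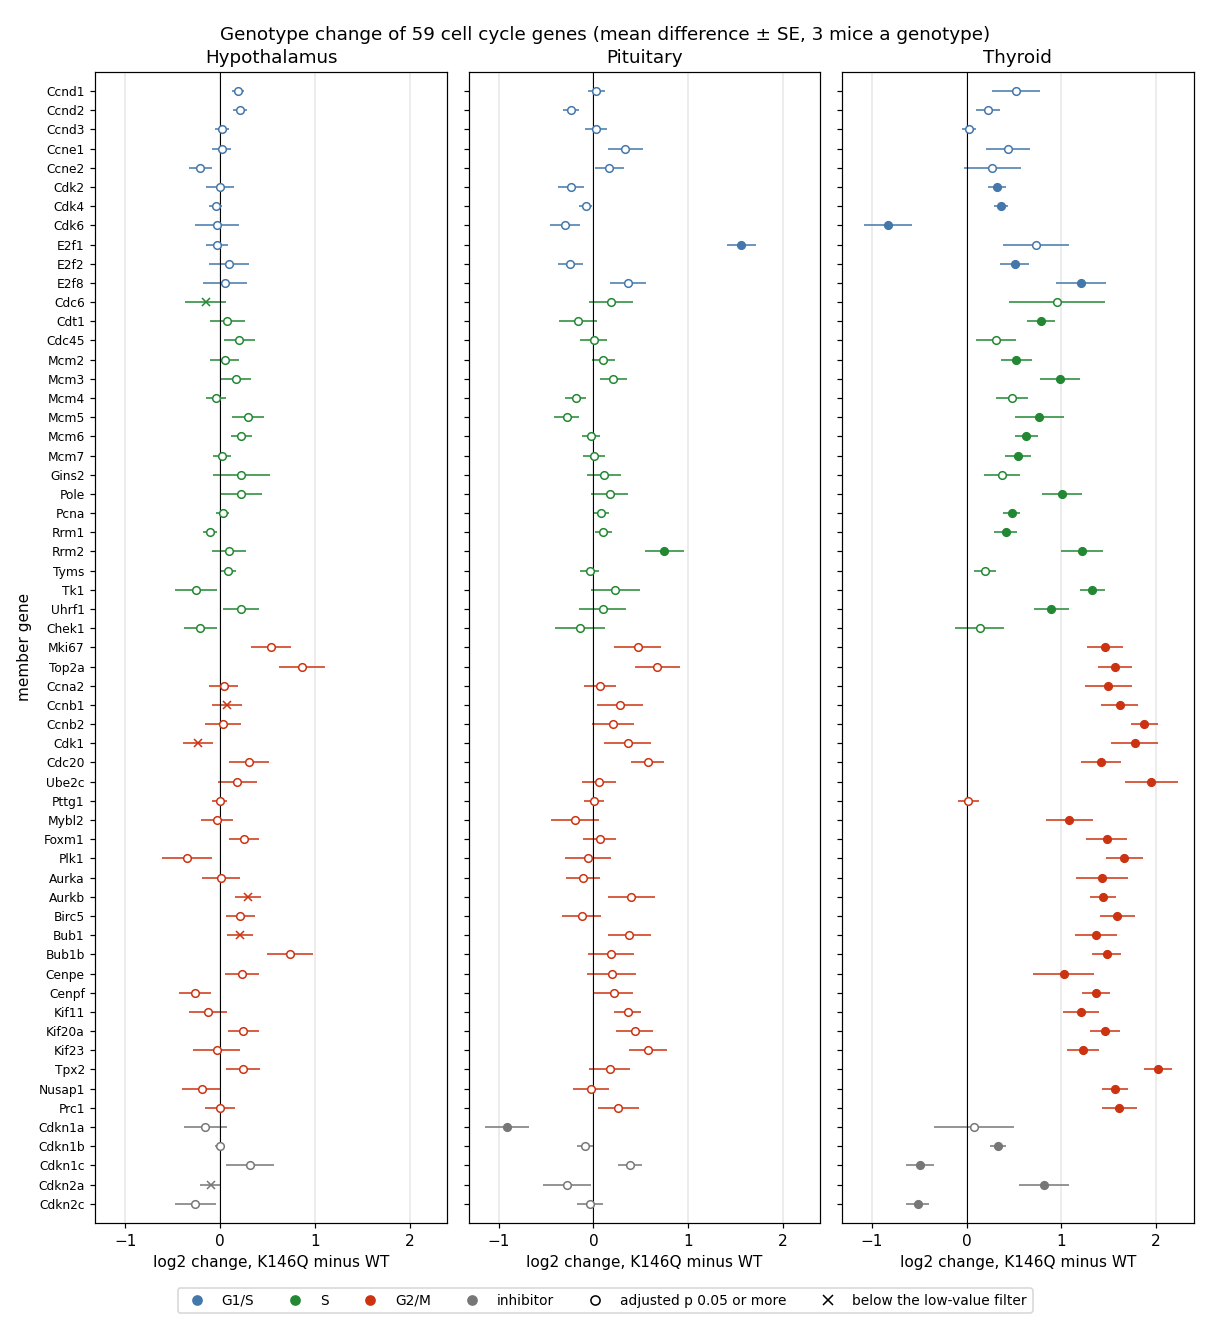
Log2 change (K146Q minus WT, x axis) of the 59 genes (y axis, coloured by phase) in each tissue, with the standard error as a bar. Filled points had an adjusted p below 0.05 and crosses are genes below the low-value filter. In the thyroid panel the G2/M points other than Pttg1 lie between 1.02 and 2.02.

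Summed over each phase, the G2/M genes reached 239, 166 and 238 in the WT thyroids and 532, 532 and 614 in the mutants, a ratio of means of 2.61. The S-phase sums were 310, 274 and 386 in WT and 468, 470 and 548 in K146Q, a ratio of 1.53. Neither sum overlapped between genotypes, and the inhibitor sums did, with a ratio of 0.993. Other genes of the same pathways, from separate lists chosen with earlier results of these data known, went with them. Of 40 other mitosis genes 38 were higher and 0 lower (median 1.36), led by Pbk, Kif2c and Espl1, and of 30 other replication genes 17 were higher and 0 lower (median 0.50), led by Prim1 and Chaf1b. Of 20 other inhibitors and exit genes 8 were higher, led by Cdkn3, and 3 lower. Of all 15200 genes tested in thyroid 19.7% were higher and 18.1% lower. The share of this last list that was lower is therefore no larger than that of all genes. The 3 that fell were the pocket protein genes Rbl2, Rb1 and Rbl1, whose products bind E2F. Rb1 averaged 43.9 ± 2.32 in WT and 24.8 ± 3.47 in K146Q (-0.82, adjusted p = 0.00166).

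Markers of other cell types also differed between the thyroid groups, and their part in the cell cycle results was not tested. Of 4 leukocyte markers tested 3 were higher, and their summed level was 75.9 to 101 in WT and 183 to 192 in K146Q. Endothelial markers (2 of 5 higher) summed to 587 to 689 and 738 to 825, and fibroblast markers (2 of 5 higher, 2 lower) to 719 to 846 and 1353 to 1569. Adipose markers (4 of 4 lower) fell from between 360 and 405 to between 54.1 and 108, and parathyroid markers (3 of 3 lower) from between 3454 and 6409 to between 523 and 1569. Skeletal muscle markers, with 0 of 4 called, ranged from 256 to 5380 within the WT group and from 568 to 3223 in the mutants. The 5 follicular markers (1 higher, 2 lower) summed to between 294925 and 358488 in WT and between 85149 and 131765 in K146Q, so the tissue label was borne out in every library. Glia markers (3 of 4 lower), neuron markers (1 of 4 lower) and pituitary hormone cell markers (0 of 6 called) completed the lists, and none of the markers was at 0 in all 6 libraries.

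In the pituitary few of the genes differed, and the one large change was in E2f1. All 59 genes were tested, with 2 higher and 1 lower, while 6.36% of the 15589 genes tested were higher and 3.5% lower. The median log2 change was 0.098, against -0.0088 over all genes tested. The groups did not overlap in 9 genes that were higher (16.7% of all genes tested) and 4 that were lower (14.3%). These shares of the list are near or below the background of the tissue.

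E2f1, the activating E2F that drives entry into S phase, was at 6.23, 6.01 and 5.70 in the WT and 23.6, 16.2 and 16.9 in the K146Q pituitaries. Its mutant values were all more than those of any WT library, and the ratio of group means was 3.16 (log2 change 1.56 ± 0.15, adjusted p = 0.000329). The E2f1 call held in every alternative. Rrm2 was at 0.534, 1.03 and 0.911 in WT and 1.70, 1.74 and 1.66 in K146Q, without overlap but at low levels (0.75 ± 0.20, adjusted p = 0.0469). Cdkn1a was at 12.2, 11.4 and 19.3 in WT and 7.33, 5.26 and 9.48 in K146Q, again without overlap (-0.91 ± 0.23, adjusted p = 0.038). Rrm2 was lost in each of the 6 analyses that left out 1 mouse and in edgeR (adjusted p = 0.0538), and Cdkn1a in 5 of the 6.

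The proliferation markers of the pituitary did not pass. Mki67 was at 4.14, 9.09 and 8.83 in WT and 9.91, 8.98 and 10.6 in K146Q, and the groups overlapped (0.47 ± 0.25, adjusted p = 0.286). Top2a was at 2.58, 5.55 and 5.01 in WT and 7.74, 6.43 and 6.82 in K146Q, without overlap (0.68 ± 0.24, adjusted p = 0.109). Cdk1 was at 0.667, 1.77 and 1.42 in WT and 1.91, 1.68 and 1.56 in K146Q (0.36 ± 0.25). In each of these genes WT library 1 was the lowest, as it was for 34 of the 59 genes, and without it their changes were 0.12, 0.37 and 0.081. Pcna was at 30.2, 32.7 and 32.7 in WT and 34.4, 33.3 and 33.5 in K146Q (0.082 ± 0.080). Mcm2 was at 22.7, 22.7 and 27.9 in WT and 29.8, 25.0 and 24.1 in K146Q (0.10 ± 0.12), and Ccnd1 was at 173, 202 and 202 and at 187, 185 and 217 (0.030 ± 0.091). The first of these 3 genes had no overlap and the other 2 did.

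By phase, the pituitary had 1 of 11 G1/S genes, 1 of 18 S genes and 0 of 25 G2/M genes higher, with medians of 0.024, 0.090 and 0.21. The G2/M values ranged from -0.19 to 0.68. Without WT library 1 these medians were -0.11, 0.027 and 0.047, and 1 gene of the list was called, E2f1. For Tpx2 and Ccnb2, the genes with the smallest p in the thyroid, the pituitary intervals (95%) were -0.31 to 0.65 and -0.30 to 0.71, below the thyroid changes. Of the inhibitors, Cdkn1c had 0.38 with an adjusted p of 0.087, the opposite sign to the thyroid. The other mitosis list had 1 gene higher, Kif4, the other replication list 0, and the other inhibitor list 1, Btg1. Leukocyte markers (2 of 4 higher, sums of 38.9 to 44.4 in WT and 62.4 to 95.6 in K146Q) differed in the same libraries, as did neuron markers. Of the latter, 3 of 5 were higher (Syt1, Gad1 and Snap25), with sums of 486 to 555 and 758 to 858. Parathyroid markers also differed (1 of 2 higher, Casr, 11.1 to 13.3 in WT and 48.1 to 104 in K146Q). So did endothelial markers (1 of 5 higher, 234 to 248 and 271 to 273) and fibroblast markers (1 of 5 lower, 485 to 599 and 445 to 477). The names are those of the lists, and the cells that gave these reads were not identified. Of the adipose, skeletal muscle, follicular and glia markers 0 were called, and the part of these markers in the results was not tested. Pituitary hormone cell markers, with 2 of 6 higher and 1 lower, summed to at least 109335 in every library.

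**Figure D4:**
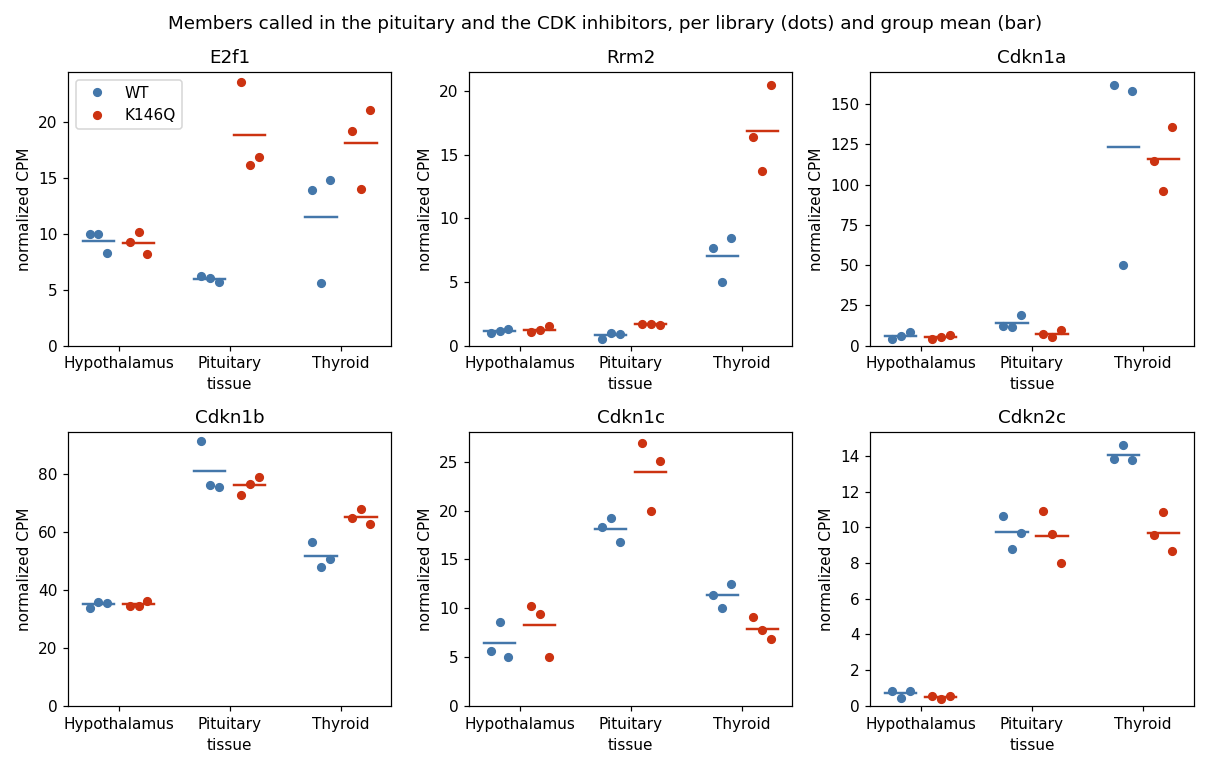
Level of E2f1, Rrm2 and 4 CDK inhibitors in each library (dots, normalized CPM) and group means (bars) in the 3 tissues. E2f1 lies between 5.70 and 6.23 in the WT pituitaries and between 16.2 and 23.6 in the K146Q pituitaries.

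In the hypothalamus none of the 53 genes that passed the low-value filter was called by limma, and of all 15761 genes tested 0% were. Of the 53, 5 had an unadjusted p below 0.05, as did 645 of the genes tested (4.09%). edgeR called 0 genes and DESeq2 called 9 genes in all, none of them from the list. Cdc6, Ccnb1, Cdk1, Aurkb, Bub1 and Cdkn2a fell below the filter. The groups did not overlap in 8 of the 53 genes that were higher (4.2% of all genes tested) and 1 that was lower (4.95%). The 8 of 53, and the 5 of 53 by unadjusted p, are larger shares than those of all genes tested. None of the 53 was called after adjustment.

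The hypothalamic levels of the division markers were low, at 12 to 41 reads for Mki67, 3 to 25 for Top2a and 1 to 6 for Cdk1. Of these, Cdk1 and the lowest Top2a library were close to the detection limit. Mki67 was at 0.716, 1.04 and 1.10 in WT and 1.33, 1.35 and 2.21 in K146Q, and Top2a was at 0.656, 0.347 and 0.174 and at 0.845, 1.25 and 1.18. The mutant libraries were the higher ones in both genes, with log2 changes of 0.54 ± 0.21 and 0.86 ± 0.24 and an adjusted p of 0.998 for each (limma). Cdk1 was at 0.358, 0.231 and 0.232 in WT and 0.121, 0.05003 and 0.323 in K146Q, with as little as 1 read in a library. Genes of higher level gave narrower limits. Pcna was at 24.3, 22.3 and 21.6 in WT and 22.6, 24.1 and 22.6 in K146Q (0.026, 95% interval -0.13 to 0.18). Mcm2 was at 4.83, 4.10 and 4.93 in WT and 5.31, 5.45 and 3.77 in K146Q (0.049 ± 0.16). Ccnd1 was at 33.9, 34.8 and 31.8 in WT and 36.5, 38.0 and 40.6 in K146Q (0.19 ± 0.062), and it had no overlap, unlike Pcna and Mcm2. The other replication, mitosis and inhibitor lists had 0 genes called, as had all marker lists, and the neuron markers summed to between 2772 and 3113 in every library.

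**Figure D5:**
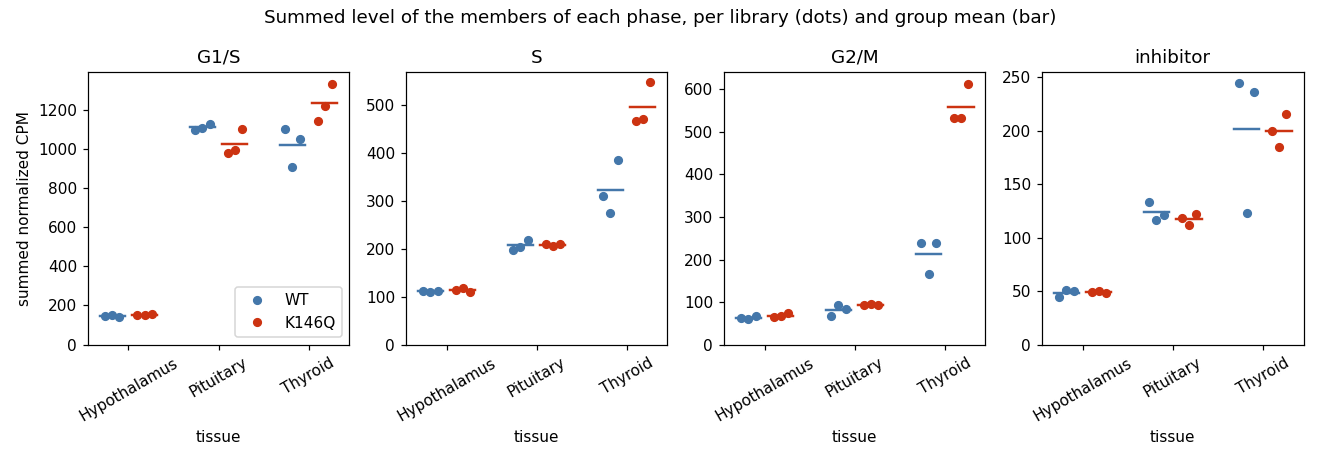
Summed level of the genes of each phase (normalized CPM, y axis) per library (dots) with group means (bars) in the 3 tissues. The thyroid G2/M sums are 166 to 239 in WT and 532 to 614 in K146Q mice, and the hypothalamic and pituitary sums of both genotypes stay below 100.

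Among WT mice, 47 of the 59 genes had their highest mean in the thyroid, 9 in the pituitary and 3 in the hypothalamus. In 38 of the 47 the lowest WT thyroid exceeded the highest library of the next tissue. For G2/M genes this held in 21 of 25. The G1/S sums differed from this order: they were 1094 to 1125 in WT pituitary and 909 to 1101 in WT thyroid, so these neighbours overlapped, and 142 to 151 in hypothalamus. The order was not counted over all genes, so it is not shown to be particular to the list. WT columns summed to 1230827 to 1269759 in thyroid, 904935 to 1030067 in pituitary and 896894 to 918562 in hypothalamus. The tissues are thus not on a common scale, and some gaps were narrow, as for Mcm2 (28.2 against 27.9 in pituitary).

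The genotype effects of thyroid and pituitary were compared directly (limma on all 18 libraries, contrast of the 2 genotype differences). Of the 59 genes, 36 had a higher log2 change in the thyroid and 1 a lower one at an adjusted p below 0.05, while 16.4% of the 17140 genes tested were higher and 17.4% lower. The median difference was 0.83 over the list and -0.015 over all genes tested. By phase, 21 of 25 G2/M genes, 8 of 18 S genes, 5 of 11 G1/S genes and 2 of 5 inhibitors were higher. The differences for Ube2c, Tpx2 and Ccnb2 were 1.88 ± 0.35, 1.85 ± 0.28 and 1.67 ± 0.25, whereas Top2a (0.89, adjusted p = 0.0558), Cenpe, Kif23 and Pttg1 did not pass. Cdkn1c was the only gene with a lower effect in the thyroid (-0.88 ± 0.31, adjusted p = 0.0378). E2f1, called in the pituitary and not in the thyroid, had a difference of -0.83 ± 0.37 (adjusted p = 0.0918). Rrm2, the only gene called higher in both tissues, had 0.47 ± 0.28 (adjusted p = 0.218). Without WT mouse 2 in either tissue, 22 genes were higher and 2 lower, the second being E2f1 (-1.26, adjusted p = 0.00272). With mouse as a replicate block, since the same mice gave both tissues, 37 were higher and 1 lower, and the added gene was Pole (adjusted p = 0.0449 against 0.054 unpaired).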

How the data were processed

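RNA-Seq of 18 mouse libraries was analysed from 1 table per tissue. The authors deposited a normalized signal for each library and gene, which equals reads times 1 factor per library (a CPM on an effective library size). Whole reads were recovered for 100% of values (within 0.1 of a whole number), and columns summed to 896894 to 1269760. Samples were snap-frozen tissues, and total RNA was sequenced on an Illumina instrument. The submitters' processing notes name bcl2fastq 2.17, Bowtie2 2.1.0, RSEM 1.2.15 and mm10, without roles. RSEM would give estimated counts, and whole numbers are what the tables hold. The published methods describe collection of hypothalamus and pituitary only, although thyroid tables were deposited. The authors' own comparison columns (logFC, logCPM, LR, PValue and FDR) were not used. The tables use gene symbols.

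Each tissue was fitted alone with limma 3.58.1 (R 4.3.3, trend) on log2(value + 0.5), for genes at 0.5 or more in at least 3 of 6 libraries, with Benjamini-Hochberg adjustment over all genes tested and a threshold of 0.05. The tissue contrast used 6 group means over 18 libraries and the 24027 symbols unique in every table. The hypothalamus libraries entered only its estimate of the spread. WT and K146Q libraries of a tissue come from different mice and were not paired. The same mice recur across tissues (pituitary with thyroid, correlations of 0.0328 to 0.174 per mouse, consensus correlation 0.0633), so mouse was fitted as a replicate block in an alternative. Other alternatives were other pseudocounts, filters, scalings and variance models, edgeR 4.0.16 and DESeq2 1.42.0 on the recovered reads, and leaving out each mouse. edgeR called 2966 genes higher and 2674 lower in thyroid, 1001 and 529 in pituitary and 0 in hypothalamus. No 2 replicates agreed within sampling noise (lowest chi-square per degree of freedom 6.11). Scripts were tested on simulated data. p-values measure the spread among 3 mice per genotype, and limits from reads cover counting error only.

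Values in every library were printed for the 2 called thyroid genes of each phase with the smallest p, the 3 with the highest and the 3 with the lowest log2 change among those called, every inhibitor, genes called against most of their phase, genes called in pituitary or hypothalamus, and Mki67, Top2a, Ccnd1, Cdk1, Pcna and Mcm2. E2f1 in thyroid and the WT values of Cdc6 were added after their values were seen, and so were the printed promoters. The genes and lists were chosen with earlier results of these data known. Marker lists were read under the symbols in the tables, where 1 leukocyte symbol was not found.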

Additional observations from a re-analysis of the deposited data

Results flagged for a closer look

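The genotype effect on 37 of the 59 genes differed between thyroid and pituitary by a test of the difference itself (limma, adjusted p below 0.05), where 16.4% of all genes tested differed upward and 17.4% downward. Each value is the thyroid log2 change minus the pituitary log2 change, and both tissues came from the same mice. Among G2/M genes these were Ube2c (1.88), Tpx2 (1.85), Plk1 (1.72), Birc5 (1.72), Ccnb2 (1.67), Nusap1 (1.58), Aurka (1.54), Ccna2 (1.43), Cdk1 (1.41), Foxm1 (1.41), Prc1 (1.35), Ccnb1 (1.33), Bub1b (1.29), Mybl2 (1.28), Cenpf (1.15), Aurkb (1.03), Kif20a (1.02), Mki67 (0.99), Bub1 (0.99), Kif11 (0.85) and Cdc20 (0.84). Among S-phase genes they were Tk1 (1.09), Mcm5 (1.05), Cdt1 (0.95), Mcm3 (0.77), Mcm4 (0.67), Mcm6 (0.65), Mcm7 (0.53) and Pcna (0.39). The G1/S genes were E2f8 (0.84), E2f2 (0.75), Cdk2 (0.56), Ccnd2 (0.47) and Cdk4 (0.44). The inhibitors with a larger value in thyroid were Cdkn2a (1.10) and Cdkn1b (0.42), and Cdkn1c had a smaller one (-0.88). Cdkn2a had as few as 4 reads in a thyroid library and 5 in a pituitary library, and its thyroid call was lost in edgeR and DESeq2. The spread of the contrast also drew on the hypothalamus libraries, where Cdkn2a had 0 to 2 reads, so its difference is less secure than its adjusted p. Ccnd2 and Mcm4 differed between the tissues although neither was called in either tissue alone. WT thyroid library 2, the lowest WT thyroid library for 51 of the 59 genes, enters every one of these values, and without mouse 2 the number that differed was 24. These 24 include E2f1, which is not among the 37. Genes listed above that were no longer called without mouse 2 include Mki67 (0.62, adjusted p = 0.243), Cdc20, E2f2 and E2f8. Most of the S-phase genes listed were lost too: Tk1, Mcm3, Mcm4, Mcm5, Mcm7 and Pcna. Leukocyte, fibroblast and adipose markers also differed between the thyroid groups, and their part in these values was not tested.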

How the results depend on the processing

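The hypothalamus count stayed at 0 in all alternatives. The thyroid count of 45 lay between 39 and 45 under the other settings and between 35 and 43 when 1 mouse was left out, and 34 of the 45 calls held in every alternative (G2/M 23 of 24, S 8 of 12, G1/S 2 of 5, inhibitors 1 of 4). The pituitary count of 3 was 1 to 2 without 1 mouse (1 without WT mouse 1, 2 or 43 or K146Q mouse 60) and 2 to 4 under the other settings, where Ccnd2 (lower) and Cdc20 (higher) were the genes gained. The tissue contrast count of 37 was 24 to 35 without 1 mouse, 24 being without WT mouse 2, and 28 to 41 otherwise. The paired fit with mouse as a replicate block gave 38 and changed no call apart from Pole. Leaving the 10 highest genes out of the totals moved the median of all thyroid genes to -0.12 and the thyroid split of all genes to 2502 higher and 3629 lower, against 2992 and 2747, and gave 36 genes of the list higher and 3 lower. In pituitary the same setting split all genes into 841 higher and 885 lower, against 991 and 546.

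Genes whose sign reversed were not called in the analysis reported. In thyroid, Ccnd2 was -0.00603 and Ccnd3 -0.044 under quantile normalization. With totals that left out the 10 highest genes, Ccnd3 was -0.074, Pttg1 -0.076 and Cdkn1a -0.020, and in pituitary Ccnd1 was -0.026. Pituitary Ccnd1 was -0.014 under quantile normalization. Thyroid Cdkn1a was -0.089 in edgeR and -0.085 in DESeq2. With 1 mouse left out, the ranges in thyroid were -0.0053 to 0.062 for Ccnd3, -0.10 to 0.32 for Chek1, -0.070 to 0.078 for Pttg1 and -0.48 to 0.36 for Cdkn1a, -0.044 to 0.070 for pituitary Ccnd1, and -0.00934 to 0.074 for Pcna and -0.037 to 0.20 for Mcm2 in hypothalamus. The cause was not tested. In hypothalamus 4 of the 25 G2/M genes, 2 of the 18 S genes and 1 of the 5 inhibitors had fewer than 3 reads in at least 1 library.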
